A study of Mus musculus with 12 samples.

Results

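Expression of 10 checkpoint and costimulatory genes was examined in tumour-associated macrophages (TAMs) of mice given picrotoxin or its solvent. The genes were taken by name and are the PD-1 ligands Cd274 (PD-L1) and Pdcd1lg2 (PD-L2), the CD28 and CTLA-4 ligands Cd80 and Cd86, the ICOS ligand Icosl, the receptor for T cell help Cd40, Havcr2 (TIM-3) with its ligand Lgals9 (galectin-9), the CD47 receptor Sirpa, and Pvr, a ligand of TIGIT and CD226. All 10 were present among the 24781 rows of the deposited table and among the 9580 genes that were tested. Wild-type mice with tumours of MC38, a mouse colon adenocarcinoma line, received either DMSO or picrotoxin, an antagonist of the ionotropic GABA type A receptor. For each library 100 cells positive for CD45 and CD11b and high for F4/80 were sorted from tumours on day 7. Each group had 6 such libraries, which carry the numbers 1 to 6. The sources differ on the animals behind them: the methods assign a mouse to every library, a figure legend counts fewer mice than libraries for this experiment, and the labels name only separate library preparations without saying which would share a mouse. All SDs, p-values and intervals below treat the 6 libraries of a group as independent, so they measure the spread between libraries and are too small if libraries shared a mouse. The labels tie no strain, sex or age to a library. Counts were of barcoded molecules rather than reads.

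T cells respond through the T cell receptor together with a second signal from molecules on the presenting cell. CD80 and CD86 give that signal through CD28 and are captured by the inhibitory receptor CTLA-4, ICOS ligand acts through ICOS, and CD40 receives help from CD40 ligand on T cells. PD-L1 and PD-L2 bind PD-1 and restrain T cells that have been activated, and in tumours PD-L1 is known to be carried by macrophages as well as by tumour cells and to be induced by interferon-γ. SIRPα is an inhibitory receptor of myeloid cells that reads CD47 as a signal against phagocytosis.

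The PD-1 ligands are neighbours. On GRCm38, the build also named mm10, Cd274 (ENSMUSG00000016496.7) lay on the plus strand at chr19:29367455-29388095 and Pdcd1lg2 (ENSMUSG00000016498.10) on the same strand at chr19:29410919-29471161, 22823 bases further on and with 0 annotated genes between them. An annotated antisense gene, AC119228.1, overlaps exons of Cd274 on the other strand and has no row of its own in the table, and since strand use in the counting was not stated its molecules could not be told from those of Cd274. Cd86 and Cd80 shared chromosome 16 but stood 1.789 Mb apart. No exon of the other 9 genes overlapped an annotated exon of another gene, and no transcript of the 10 shared a stretch of at least 150 bases at 97% identity with another gene. RefSeq promoters, taken as 250 bases before to 50 bases after the annotated start on GRCm38.p6, were held for 6 of the 10 genes (Cd274, Pdcd1lg2, Cd80, Icosl, Havcr2 and Lgals9). Those of the adjacent PD-1 ligands are shown because Cd274 and Pdcd1lg2 carry the comparisons below, and that of Lgals9 because it held the most motif matches of the 6. They are at chr19:29367188-29367487 (plus strand), chr19:29410669-29410968 (plus strand) and chr11:78984875-78985174 (minus strand), each written 5′ to 3′ along its gene, and capitals mark motif matches.
Cd274: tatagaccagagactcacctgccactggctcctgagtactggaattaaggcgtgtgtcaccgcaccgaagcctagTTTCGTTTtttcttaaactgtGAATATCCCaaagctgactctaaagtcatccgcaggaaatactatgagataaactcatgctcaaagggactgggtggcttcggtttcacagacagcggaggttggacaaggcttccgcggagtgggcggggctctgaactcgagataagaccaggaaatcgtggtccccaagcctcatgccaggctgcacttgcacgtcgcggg
Pdcd1lg2: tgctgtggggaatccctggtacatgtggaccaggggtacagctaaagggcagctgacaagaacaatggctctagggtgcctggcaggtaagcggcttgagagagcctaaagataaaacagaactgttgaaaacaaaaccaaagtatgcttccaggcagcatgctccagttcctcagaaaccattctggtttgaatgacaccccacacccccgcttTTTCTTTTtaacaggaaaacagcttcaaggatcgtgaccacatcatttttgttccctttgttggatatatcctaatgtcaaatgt
Lgals9: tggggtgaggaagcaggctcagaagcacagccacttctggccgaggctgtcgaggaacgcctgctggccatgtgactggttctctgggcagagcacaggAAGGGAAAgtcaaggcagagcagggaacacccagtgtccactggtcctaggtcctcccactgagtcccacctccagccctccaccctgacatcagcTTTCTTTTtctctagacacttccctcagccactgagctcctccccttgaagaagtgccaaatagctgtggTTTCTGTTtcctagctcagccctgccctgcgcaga
Searched on both strands were a STAT motif (TTCNNNGAA, in 8.3% of 32851 RefSeq promoters), a core motif of interferon regulatory factors (AANNGAAA, in 23.9%) and a part of the NF-kB motif (GGGANNTTC, in 3.94%). Positions count from 0 at the annotated start. The window of Lgals9 held the interferon regulatory factor motif at -151, -55 and 15, that of Pdcd1lg2 at -35 and that of Cd274 at -175, and Cd274 also held the NF-kB letters at -154. Of the 3 windows not printed Cd80 had 1 interferon regulatory factor match, at 30, and Icosl and Havcr2 had none. The STAT letters were in none of the 6. A motif present in 23.9% of all promoters is a weak description, and no site was tested.

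Libraries held 201697 to 309617 molecules and 9846 to 10866 detected genes, so that a gene at 0 molecules in the smallest library could still have held a share of up to 0.00149% (3 molecules, counting error only). Macrophage markers took 1.14% to 1.59% of the molecules in DMSO and 1.37% to 1.51% in picrotoxin libraries, and all 13 were tested. Of the 13, 10 were higher in picrotoxin, beside 49.2% of all tested genes. An unadjusted p under 0.05 was reached by 2 of them, both higher, beside 7.77% of all tested genes. Markers of other cells were few but not absent. The 8 MC38 and epithelial markers summed to 8 to 14 molecules in DMSO and 9 to 21 in picrotoxin libraries, nearly all of them of Cdh1 (152 of 155), which had a log2 fold change of 0.70 (SE 0.26, adjusted p = 0.428, unadjusted p under 0.05), while 5 of the 8, Epcam among them, were at 0. The 11 T and NK cell markers gave 0 to 1 molecules in DMSO and 0 to 24 in picrotoxin libraries, 21 of the 30 being of Gzmb, 20 of these in picrotoxin 6, and Gzmb also had an unadjusted p under 0.05 (adjusted p = 0.403), and 4 of the 11, Cd3e and Cd8a among them, were at 0. The 6 B cell markers gave 0 to 3 and 1 to 2 molecules, with 5 at 0, and the 8 neutrophil markers 1 to 6 and 1 to 7, with 5 at 0. Of the sort markers, Itgam (CD11b) averaged 137.2 ± 39.0 normalised molecules in DMSO and 177.5 ± 14.0 in picrotoxin (± is the SD over 6 libraries here and below). The log2 fold change of Itgam was 0.38 (SE 0.13, adjusted p = 0.408, unadjusted p under 0.05). Adgre1 (F4/80) differed by 0.19 (SE 0.13) and Ptprc (CD45) by 0.092 (SE 0.12). The 12 fibroblast and matrix markers gave 13 to 762 molecules per DMSO library and 7 to 58 per picrotoxin library, with the highest sums in DMSO 5 (762) and DMSO 3 (180), and 7 of the 8 tested were lower in picrotoxin at an unadjusted p under 0.05, which 7.77% of all tested genes reached, at a lowest adjusted p of 0.109. Dendritic cells also carry several of the 10 genes. The 9 dendritic cell markers summed to 5 to 22 molecules in DMSO and 2 to 10 in picrotoxin libraries, highest at 22 in DMSO 3 and DMSO 5. Of the 9, 7 did not reach the level tested, and Flt3 and Cd209a were at 0. Fscn1 gave 71 of the 114 molecules of the list, with at most 18 in a library. The log2 fold change of Fscn1 was -1.11 (SE 0.58, adjusted p = 0.640, unadjusted p under 0.05). The part of these cells in the results below was not tested. In bulk samples of this kind fewer cells carrying a transcript and less RNA per cell cannot be told apart.

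The 10 transcripts covered a wide range of abundance. Together they gave 199 to 276 molecules per library, 2959 in all. Sirpa was the most abundant with 1052 molecules, at the 95.9 percentile of the tested genes by mean, followed by Lgals9 with 476 and Cd274 with 446. Pdcd1lg2 with 35 and Cd80 with 26 molecules over all 12 libraries were the scarcest. Levels of different genes were set side by side as normalised molecules per kb of annotated exon, although whether counts rise with length in a library weighted to the 3′ end was not tested. On that scale Lgals9 (18.1) and Sirpa (17.5) led, Cd274 (10.1), Havcr2 (7.36), Cd86 (6.15) and Cd40 (4.90) followed, and Icosl (2.34), Pdcd1lg2 (1.46), Pvr (0.795) and Cd80 (0.565) closed the order. Per kb of the longest transcript, added after the data were seen, Cd86 (8.86) stood above Havcr2 (7.36) and Pvr (1.67) just above Pdcd1lg2 (1.66), while the other 6 genes had the same places. Sirpa stood above Cd274 in 12 of 12 libraries and Cd40 above Icosl in 11 of 12. For the other 7 neighbours in the order the mean difference was smaller than its SD over the 12 libraries: Lgals9 exceeded Sirpa by 0.667 ± 4.65 molecules per kb (SD, n = 12) and was the higher in 9 of 12, and Pvr exceeded Cd80 by 0.230 ± 0.748 and was the higher in 7 of 12. Within the pairs of related ligands, Cd274 thus stood above Pdcd1lg2 and Cd86 above Cd80 on average on both scales.

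To ask whether blockade of the GABA type A receptor altered these genes, the libraries of both groups were compared. None of the 10 genes reached an adjusted p under 0.05, against 5 of 9580 tested genes (0.0522%). The lowest adjusted p-value of the 10 was 0.519 (edgeR quasi-likelihood test, Benjamini-Hochberg). Pdcd1lg2 alone had an unadjusted p under 0.05, 1 of 10 beside 7.77% of all tested genes, and it was also the 1 gene of the 10 that met the rule of the study, an unadjusted Wald p under 0.05 in DESeq2, which 3.82% of the tested genes met. DESeq2 gave an adjusted p under 0.05 for 0 of the 10. In no gene did the libraries of the groups separate fully, which 0.386% of all tested genes did. By sign 6 genes were higher and 4 lower in picrotoxin, with a median log2 fold change of 0.22 over the 10 and -0.0060 over all tested genes. The estimates and their errors are drawn in the plot of log2 fold changes.

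**Figure D1:**
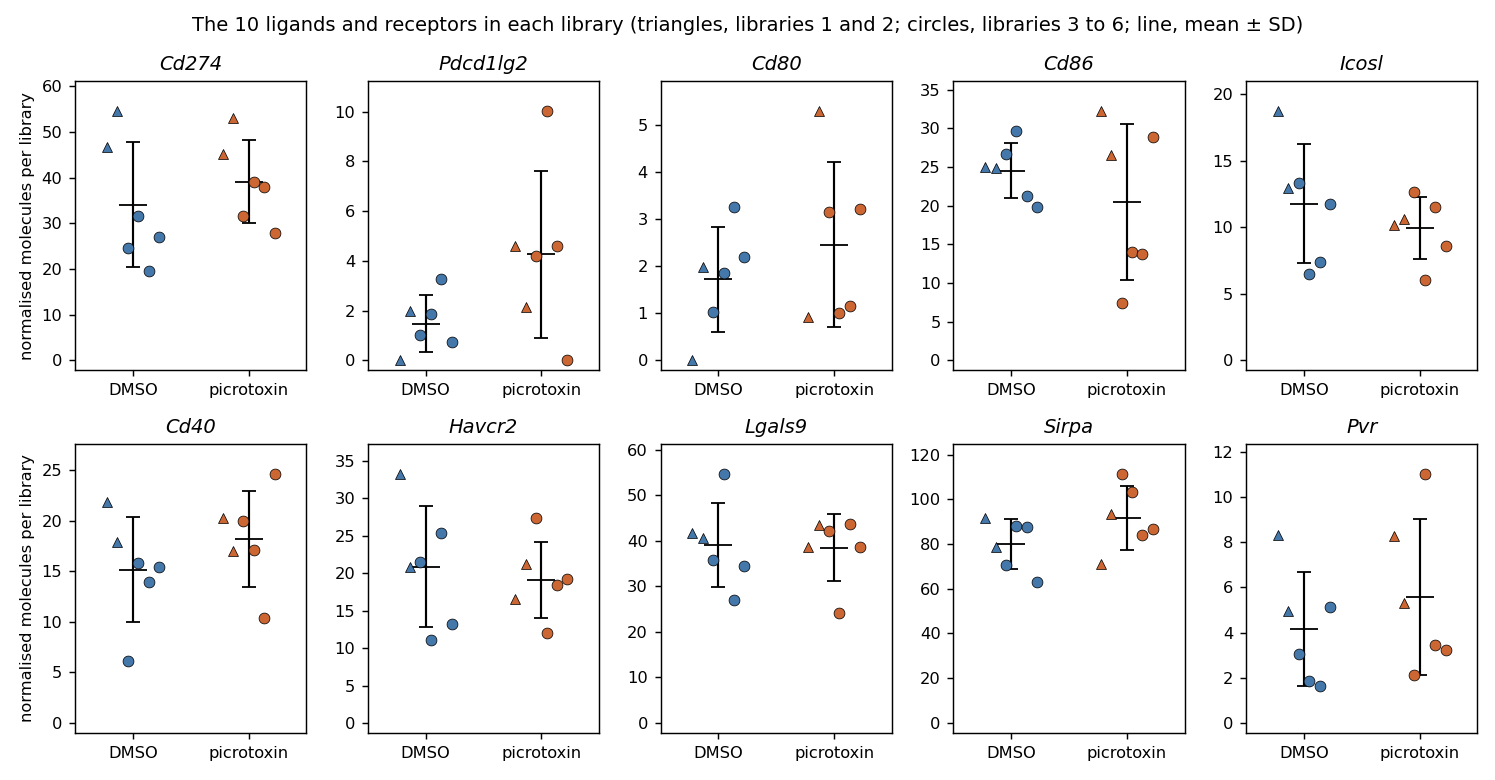
Normalised molecules per library (vertical axes, each starting just below 0 so that values of 0 can be seen) of the 10 genes in DMSO (blue) and picrotoxin (orange) libraries, where triangles are the libraries numbered 1 and 2, circles those numbered 3 to 6, and lines the mean ± SD of 6 libraries. The groups overlap in every panel, the triangles lie above all circles for Cd274, and 3 picrotoxin libraries lie below all DMSO libraries for Cd86.

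The PD-1 ligands were both higher on average in picrotoxin TAMs, with fitted ratios of 2.74 for Pdcd1lg2 and 1.18 for Cd274, and neither passed adjustment. For Pdcd1lg2 the DMSO libraries 1 to 6 held 0, 2, 1, 2, 4 and 1 molecules and the picrotoxin libraries 5, 2, 4, 10, 4 and 0. Low counts were therefore found in both groups, picrotoxin 6 and DMSO 1 had none, and 10 of the 25 picrotoxin molecules came from picrotoxin 4. After normalisation Pdcd1lg2 averaged 1.48 ± 1.15 molecules in DMSO and 4.26 ± 3.35 in picrotoxin (SD, n = 6 each), and the DMSO mean was exceeded in 5 of 6 picrotoxin libraries. The log2 fold change was 1.45 (SE 0.65, 95% interval 0.14 to 2.77, adjusted p = 0.519 in edgeR). Without picrotoxin 4 it was 1.01, and in limma-voom with all libraries 1.13, and in neither was the unadjusted p under 0.05. An exact permutation test on log2(normalised molecules + 1), added after the data were seen, gave a difference of 0.91 (two-sided exact p = 0.134, where 924 assignments allow no p below 0.00216). The spread of Pdcd1lg2 over the DMSO libraries, a coefficient of variation of 77.5%, was close to the 77.5% that counting error alone gives at these numbers, and in picrotoxin it was 78.7% against 49.0%.

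Cd274 was counted at 45, 55, 24, 34, 24 and 37 molecules in DMSO 1 to 6 and at 49, 50, 30, 39, 33 and 26 in picrotoxin 1 to 6. Normalised, these were 46.8, 54.6, 24.6, 31.5, 19.6 and 27.1 in DMSO and 45.2, 53.1, 31.5, 39.1, 38.0 and 27.9 in picrotoxin. The libraries numbered 1 and 2 were the highest of both groups. Means were 34.0 ± 13.7 and 39.1 ± 9.13 (SD, n = 6 each), and the log2 fold change of 0.24 (SE 0.20, 95% interval -0.17 to 0.65, adjusted p = 0.843) was within the spread between libraries. It was 0.11 without DMSO 5, 0.13 without picrotoxin 2 and 0.42 without DMSO 2. The lowest values of Cd274 were those of DMSO 5 (19.6) and DMSO 3 (24.6). These libraries had 762 and 180 molecules of fibroblast and matrix markers, and 22 molecules each of the dendritic cell list. Over all libraries Fscn1 gave 71 of the 114 molecules of that list, and Flt3 and Cd209a were at 0. With DMSO 3 and DMSO 5 left out, a choice made after the data were seen, the log2 fold change of Cd274 was -0.0011 (SE 0.19). With a matrix marker score (the mean log2 CPM of the tested markers) as a covariate it was -0.047 (SE 0.18). The sign of Cd274 was thus kept in neither fit. DMSO 3 and DMSO 5 are both among the libraries numbered 3 to 6, which lay below libraries 1 and 2 in both groups. Leaving them out therefore also changed the balance of library numbers between the groups, and the part of each was not tested. For Pdcd1lg2 the same fits gave 1.82 and 2.20, both larger than with all libraries. The share of Pdcd1lg2 among the PD-1 ligand molecules of a library was 0% to 14.3% in DMSO and 0% to 20.4% in picrotoxin. The highest of these, 10 of 49 molecules in picrotoxin 4, had an exact binomial 95% interval of 10.2% to 34.3%, and the 0 of 45 in DMSO 1 an upper bound of 7.87%.

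The ligands of CD28 and CTLA-4 had estimates of opposite sign, neither beyond its error. Cd86 was counted at 24, 25, 26, 32, 26 and 27 molecules in DMSO 1 to 6 and at 35, 25, 7, 14, 12 and 27 in picrotoxin 1 to 6. DMSO libraries lay close together, and picrotoxin libraries lay apart from each other, with 3, 4 and 5 under every DMSO library and 1, 2 and 6 among them or above. Normalised, Cd86 ran from 19.8 to 29.7 in DMSO and took values of 32.3, 26.5, 7.36, 14.0, 13.8 and 28.9 in picrotoxin, with means of 24.5 ± 3.59 and 20.5 ± 10.1 (SD, n = 6 each). The coefficient of variation was 14.6% in DMSO and 49.0% in picrotoxin, beside 19.4% and 22.4% from counting error alone, and the difference in spread was not tested. The log2 fold change was -0.22 (SE 0.23, 95% interval -0.69 to 0.25, adjusted p = 0.883). It rested on single picrotoxin libraries, at -0.41 without picrotoxin 1, -0.34 without 6, -0.13 without 4 or without 5, and -0.047 without 3. Cd80 never exceeded 5 molecules in a library: DMSO libraries held 0, 2, 1, 2, 4 and 3 and picrotoxin libraries 1, 5, 3, 1, 1 and 3. Its log2 fold change of 0.42 had an interval from -0.86 to 1.70 (SE 0.63, adjusted p = 0.927), which holds both a loss and a gain of Cd80. The value was 0.055 without picrotoxin 2, 0.20 without DMSO 1 and 0.68 without DMSO 5.

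Set against the PD-1 ligands of the same library, the molecules of Cd80 and Cd86 came to 47.4 to 108.0 per 100 molecules of Cd274 and Pdcd1lg2 in DMSO, with a median of 86.7. In picrotoxin they came to 29.4, 30.6 and 35.1 in libraries 3, 4 and 5, to 57.7 and 66.7 in libraries 2 and 1, and to 115.4 in library 6. The median was 46.4. The lowest and the highest value of all 12 libraries were therefore both in the picrotoxin group. These ratios are descriptions and were not tested.

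Icosl, the ligand of ICOS, ran from 6.49 through a median of 12.3 to 18.7 normalised molecules in DMSO and from 6.02 through 10.4 to 12.6 in picrotoxin. Means were 11.8 ± 4.46 and 9.91 ± 2.34 (SD, n = 6 each), with 5 of 6 picrotoxin libraries under the DMSO mean. The log2 fold change of -0.21 (SE 0.27, 95% interval -0.77 to 0.34, adjusted p = 0.918) lay inside the spread of the libraries, and was -0.048 without DMSO 1, -0.10 without picrotoxin 4, -0.33 without DMSO 5 and -0.34 without DMSO 4. Cd40 lay between 6.15 and 21.8 in DMSO, with a median of 15.6, and between 10.4 and 24.6 in picrotoxin, with a median of 18.5. DMSO 3, at 6.15, was the lowest of all. Cd40 differed by 0.28 on the log2 scale (SE 0.23, 95% interval -0.19 to 0.76, adjusted p = 0.829). This difference was 0.14 without DMSO 3, 0.18 without picrotoxin 6, and 0.066 (SE 0.23) with DMSO 3 and DMSO 5 left out. It was larger, at 0.40, without DMSO 1 or without picrotoxin 5, and 0.49 (SE 0.29) in libraries 3 to 6 alone.

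Havcr2 and Lgals9, a receptor and its ligand, had the smallest differences of the 10. Havcr2 ran from 11.1 to 33.3 normalised molecules in DMSO (median 21.2) and from 12.04 to 27.3 in picrotoxin (median 18.8), and its log2 fold change was -0.097 (SE 0.23, 95% interval -0.57 to 0.37, adjusted p = 0.959). For Lgals9 the ranges were 27.0 to 54.7 (median 38.3) and 24.1 to 43.7 (median 40.4), with means of 39.1 ± 9.30 and 38.4 ± 7.39 (SD, n = 6 each). Its log2 fold change was -0.0066 (SE 0.17), and the interval of -0.35 to 0.33 covers ratios of Lgals9 from 0.786 to 1.26. Picrotoxin 4 was the lowest of all libraries for Lgals9 and DMSO 4 the highest.

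Sirpa was the best counted of the genes and had the narrowest interval. DMSO libraries held 88, 79, 69, 95, 107 and 86 molecules and picrotoxin libraries 77, 88, 106, 103, 73 and 81. Normalised, Sirpa lay between 63.0 and 91.6 in DMSO and between 71.0 and 111.5 in picrotoxin, where only libraries 2, 3 and 4 exceeded every DMSO library and library 1 was the lowest. Means were 79.9 ± 11.3 and 91.7 ± 14.4 (SD, n = 6 each), 5 of 6 picrotoxin libraries were above the DMSO mean, and the log2 fold change was 0.21 (SE 0.13, 95% interval -0.044 to 0.47, adjusted p = 0.751). Its ligand Cd47 was counted in the same libraries at 52.4 ± 7.91 normalised molecules in DMSO and 49.4 ± 8.64 in picrotoxin (log2 fold change -0.073, SE 0.14). Pvr was scarce, at 2 to 8 molecules in DMSO and 2 to 11 in picrotoxin libraries, and picrotoxin 4 was the highest at 11. The log2 fold change of Pvr was 0.47 with an interval of -0.41 to 1.35 (SE 0.43, adjusted p = 0.855). It was 0.17 without picrotoxin 4, 0.29 without DMSO 5 and 0.75 without DMSO 1.

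Cd274 divided the libraries by their number. In the libraries numbered 1 and 2 of both groups it lay between 45.2 and 54.6 normalised molecules, and in those numbered 3 to 6 between 19.6 and 39.1. Such a gap with the 4 libraries on top was found in 0.678% of the tested genes, and among the 10 only in Cd274. The labels do not say what the numbers stand for. Among libraries 1 and 2 the mean of Cd274 was 50.7 in DMSO and 49.1 in picrotoxin (2 libraries each, no test). Among libraries 3 to 6 it was 25.7 in DMSO and 34.1 in picrotoxin, a log2 fold change of 0.43 (SE 0.20, adjusted p = 0.492).

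The labels give no reason to part libraries 1 and 2 from libraries 3 to 6, and Cd274 itself divides along this cut. The counts that follow are therefore descriptions of a subset that the labels do not define. In libraries 3 to 6 alone, 4 against 4, an unadjusted p under 0.05 was reached by 4 of the 10 genes and by 9.64% of the 9666 genes then tested. Besides Cd274, these were Sirpa at 0.34 (SE 0.14, adjusted p = 0.415), Pdcd1lg2 at 1.43 (SE 0.73, adjusted p = 0.496) and Cd86 at -0.56 (SE 0.28, adjusted p = 0.510). Cd86 averaged 24.3 in DMSO and 16.03 in picrotoxin among these libraries, and 24.9 and 29.4 among libraries 1 and 2. Whether the effect of picrotoxin differed between the libraries 1 and 2 and the libraries 3 to 6 was not tested. With that split as a term in a fit of all 12 libraries the log2 fold changes of Cd274, Cd86, Sirpa and Pdcd1lg2 were 0.23, -0.25, 0.21 and 1.48, and only Pdcd1lg2 had an unadjusted p under 0.05.

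**Figure D2:**
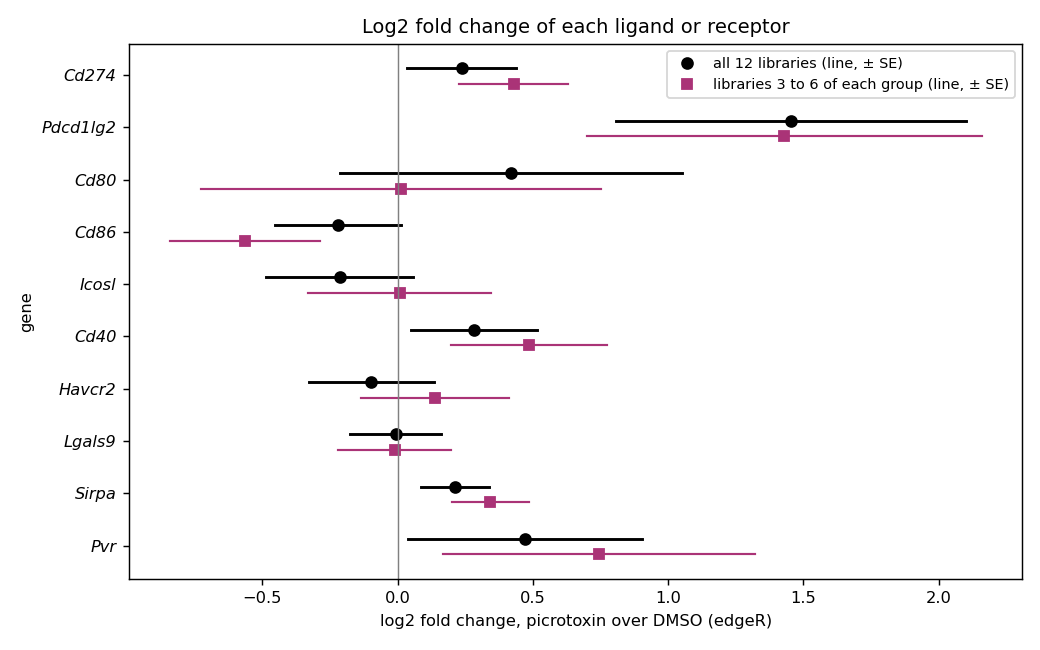
Log2 fold change of picrotoxin over DMSO (horizontal axis, edgeR) for each of the 10 genes, from all 12 libraries (black circles) and from the libraries numbered 3 to 6 of each group (purple squares), with lines of ± SE. Pdcd1lg2 lies farthest to the right at 1.45, the lines of Pdcd1lg2 and Cd80 are the widest, and Cd86 lies left of 0 in both fits.

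The 7 genes with a mean of at least 10 normalised molecules were then compared with each other across the 12 libraries, 21 pairs in all, on log2(normalised molecules + 1). No pair passed adjustment over the 21, and 1 had an unadjusted permutation p under 0.05. The closest, Icosl with Havcr2, had a Pearson r of 0.67 (permutation p = 0.0161, adjusted p = 0.338) and a Spearman rho of 0.63 (permutation p = 0.0317, adjusted p = 0.667), and r fell to 0.37 without the 2 libraries farthest from the median of Icosl. The means of libraries 1 and 2 and of libraries 3 to 6 were also subtracted within each group. Cd274 with Havcr2 then had a Pearson r of -0.73 (permutation p = 0.00765, adjusted p = 0.161) and a Spearman rho of -0.66 (permutation p = 0.0224, adjusted p = 0.470). Without the 2 libraries farthest from the median r was -0.74. The permutations took the 12 values left by the subtraction as interchangeable, although the subtraction ties them together, so these p-values may be too small. Cd274 and Cd86 did not follow each other, as the scatter of Cd86 against Cd274 shows.

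Among the 3740 other genes with a mean of at least 10, those with a pattern most like that of Cd274 over the 12 libraries included Myo18a (Spearman rho 0.90, Pearson r 0.87) and Plbd1 (rho 0.89, r 0.88). With the means of libraries 1 and 2 and of libraries 3 to 6 subtracted within each group, the rho of Myo18a was 0.76 and that of Plbd1 0.31. The 12 genes listed for interferon-γ, JAK-STAT and PD-L1 stability had a median rho with Cd274 of 0.35, with the lowest, -0.31, for Cmtm4. Over the 3740 genes the median was 0.063 and the 95th percentile 0.64. Among the higher values were Socs3 (0.76), Cmtm6 (0.74), whose product stabilises PD-L1, and Irf1 (0.73). After the same subtraction these were 0.31, 0.10 and -0.077, so that for Irf1 and Cmtm6 the likeness lay between the libraries 1 and 2 and the libraries 3 to 6. This listing was made after the values were seen, and library and depth are shared by all points. The genes most like Cd86 were Kpna2 (rho 0.91), Ythdf3 (0.83) and Jpt1 (0.81), and those most like Sirpa were Abi1 (0.88), Glud1 (0.87) and Iqgap2 (0.85).

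**Figure D3:**
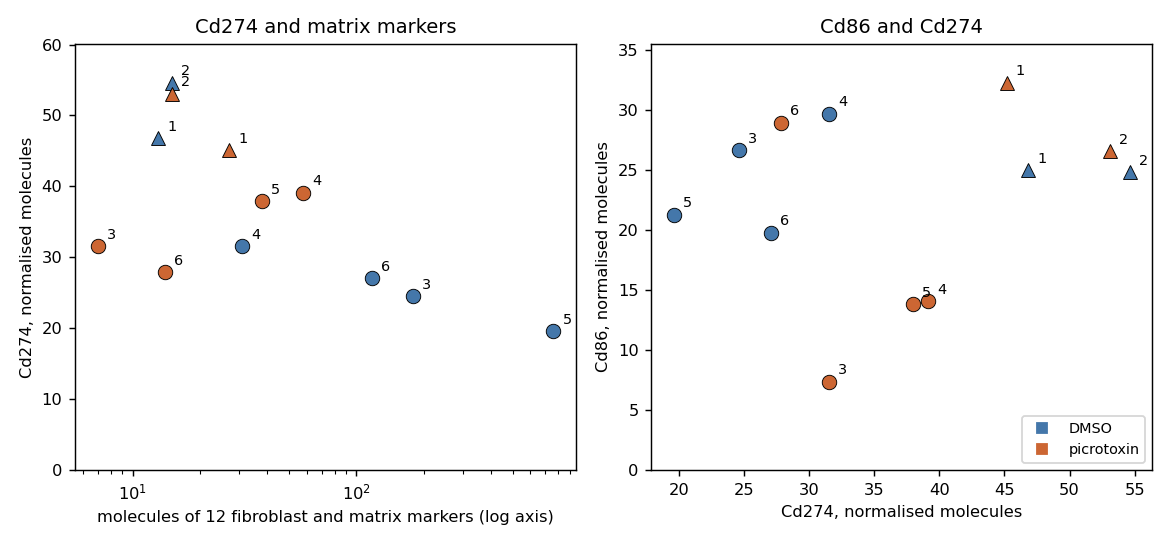
Each point is a library, labelled with its number (blue, DMSO; orange, picrotoxin; triangles, libraries 1 and 2; circles, libraries 3 to 6). Cd274 in normalised molecules is plotted against the summed molecules of 12 fibroblast and matrix markers (left, log axis), and Cd86 against Cd274 (right). The lowest Cd274, 19.6 in DMSO 5, coincides with 762 matrix marker molecules, and picrotoxin 3, 4 and 5 lie low for Cd86.

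Other genes of the same pathways were read from lists, whose counts stand beside 7.77% of all tested genes with an unadjusted p under 0.05 and 49.2% with a positive log2 fold change. In the list for interferon-γ, JAK-STAT and PD-L1 stability all 12 were tested, 11 had a positive log2 fold change, and 2 had an unadjusted p under 0.05, both higher in picrotoxin. Stat3, a transcription factor downstream of interleukin-6 and interleukin-10 receptors, averaged 43.0 ± 7.11 normalised molecules in DMSO and 54.1 ± 6.63 in picrotoxin (SD, n = 6 each), a log2 fold change of 0.35 (SE 0.14, adjusted p = 0.495). Jak2, a kinase of the interferon-γ receptor, averaged 16.9 ± 4.14 and 23.0 ± 4.18, a log2 fold change of 0.45 (SE 0.20, adjusted p = 0.563). All 6 picrotoxin libraries lay above the DMSO mean for each. Irf1 differed by 0.22, with an unadjusted p above 0.05. The median of the list was 0.20.

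Of 15 other costimulatory and B7 family genes 7 were tested, and 5 (Vtcn1, Btn2a2, Tnfsf4, Cd70 and Tnfsf18) were at 0 molecules in all libraries. Icam1, the ligand of the T cell integrin LFA-1, was the 1 gene of the 7 with an unadjusted p under 0.05 (7.77% of all tested genes), at 16.5 ± 1.69 normalised molecules in DMSO and 22.5 ± 4.42 in picrotoxin (log2 fold change 0.46, SE 0.19, adjusted p = 0.511). The lowest picrotoxin library, at 18.4, lay just under the highest DMSO library, at 18.8. Vsir, which encodes the inhibitory ligand VISTA, was the most abundant of the list with 481 molecules and differed by 0.13, with an unadjusted p above 0.05. The list had 4 genes higher and 3 lower, with a median of 0.13.

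Of 15 inhibitory receptors and phosphatases of myeloid cells 14 were tested, 12 had a positive log2 fold change beside 49.2% of all tested genes, and the median was 0.17. Cd33 was the 1 gene of the 14 with an unadjusted p under 0.05, a share near the 7.77% of all tested genes (5.91 ± 3.995 normalised molecules in DMSO and 9.71 ± 1.68 in picrotoxin, log2 fold change 0.75, SE 0.33, adjusted p = 0.575). Ptpn6, the phosphatase SHP-1 that SIRPα recruits, differed by 0.22, with an unadjusted p above 0.05. In 13 other inhibitory ligands and mediators, 9 of them tested with 5 higher and 4 lower, none had an unadjusted p under 0.05, and the median was 0.022. Ido1 and Fgl1 were at 0 molecules throughout. In the CD40 signalling list 10 of 14 genes were lower in picrotoxin, the median was -0.19, and none had an unadjusted p under 0.05. Genes of T cells listed as partners of these and related ligands were nearly absent in these sorted cells. Of 13 such genes 8, Pdcd1, Tigit and Lag3 among them, were at 0 molecules. Cd28 and Ctla4 summed to 1 and 3, and Icos to 6, all in the same picrotoxin library. Only Tnfrsf9 was tested (log2 fold change 0.50, adjusted p = 0.927). No gene of these 6 lists reached an adjusted p under 0.05.

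**Figure D4:**
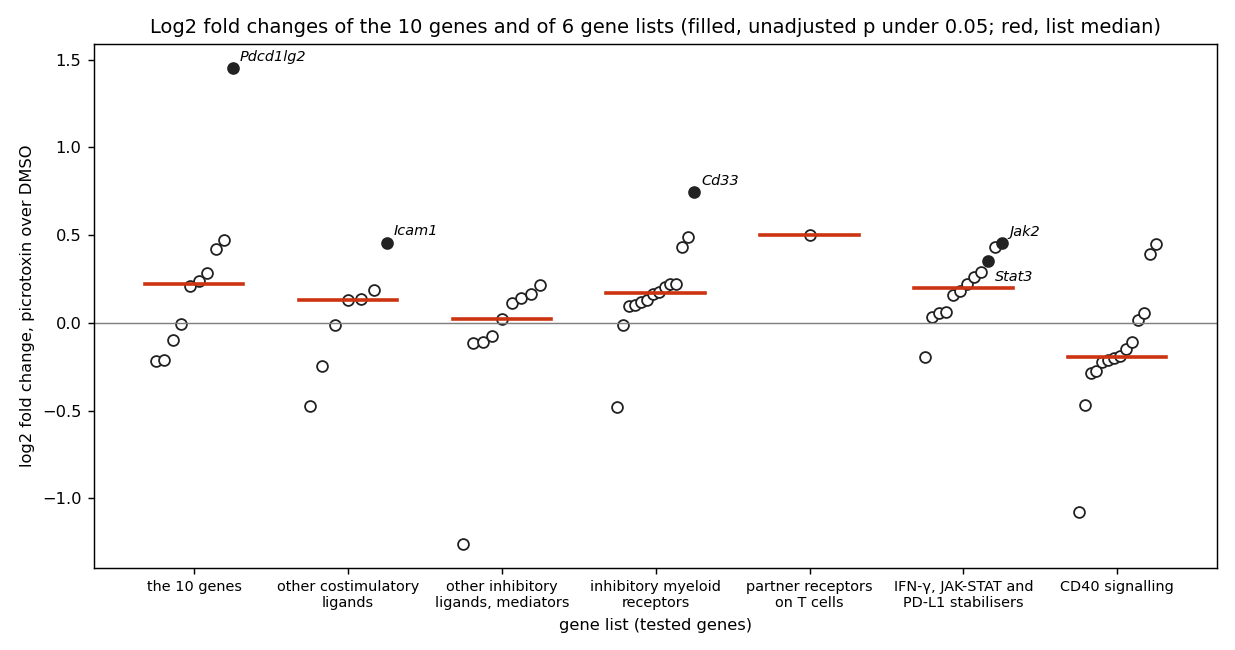
Log2 fold change of picrotoxin over DMSO (vertical axis) for each tested gene of the 10 genes and of 6 lists (horizontal axis), filled where the unadjusted p was under 0.05, with a red line at the median of each. Pdcd1lg2, Icam1, Cd33, Jak2 and Stat3 are the filled points, all above 0, and the median of the CD40 signalling list lies at -0.19.

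Jak2 lies on the same stretch of chromosome 19 as the PD-1 ligands, at chr19:29251828-29313080. Within 300 kb of the pair 11 protein-coding genes were annotated and 9 were tested, of which 6 were higher and 3 lower in picrotoxin. Of the 9, Jak2 and Pdcd1lg2 had an unadjusted p under 0.05, beside 7.77% of all tested genes. Plgrkt, between Jak2 and Cd274, differed by 0.048 (SE 0.24), Insl6 by -1.36 (SE 0.81), Ermp1 beyond Pdcd1lg2 by -0.36 (SE 0.34) and Ric1 by -0.55 (SE 0.62), so that the genes of the stretch did not share a direction. The window was chosen after the values were seen.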

How the data were processed

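RNA of 12 pools of 100 sorted macrophages, 6 per group, was counted by digital RNA sequencing. The table deposited by the authors holds raw counts, each a whole number of barcoded molecules for a gene symbol and library. The labels say that heat-fragmented RNA was copied with a barcoded oligo-dT primer, and reads were mapped to mm10 with STAR per the submitters' processing notes. Strand use, handling of multiply mapped reads and barcode error correction are not given in the sources used here. Priming from A-rich stretches weights the 3′ end.

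Every column matched a label. Genes with a mean above 1 normalised molecule (counts divided by DESeq2 size factors) were tested, 9580 in all, with the quasi-likelihood test of edgeR 4.0.16 (R 4.3.3, TMM) and Benjamini-Hochberg adjustment over all of them; DESeq2 1.42.0 and limma-voom 3.58.1 were alternatives. Intervals are at the 95% level and, like limits from a count of 0, cover counting error only where they are binomial. Correlations used 100000 permutations (two-sided). The fits were tested on simulated data. Positions follow GENCODE vM21. The 10 genes and all lists were chosen with earlier results of these data known. Named besides the 10 were up to 3 genes per pathway list by smallest p among those under 0.05, the sort markers, Cd47, and the 3 genes most like Cd274, Cd86 and Sirpa. Irf1, Vsir, Ptpn6, Tnfrsf9, Icos, the genes next to the PD-1 ligands, Cdh1, Gzmb and genes at 0 molecules were named after their values were seen. The results of some genes that the rule or a list covers are not reported here, although they are counted.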

Additional observations from a re-analysis of the deposited data

Results flagged for a closer look

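Values that stood apart from the 5 other libraries of their group were sought in 54 groups of values with Dixon's rule, which chance passes in about 1 of 20, or 2.7 of these. It was passed by 7.

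Of the 10 genes only Lgals9 had such a value, 24.1 normalised molecules in picrotoxin 4 where the other picrotoxin libraries lay between 38.6 and 43.7. The 10 genes together summed to 199 molecules in DMSO 3, against 257 to 276 in the other DMSO libraries, and DMSO 3 also had 180 molecules of fibroblast and matrix markers. DMSO 5 had 762 of these, against 13 to 180 in the others. T and NK cell markers reached 24 molecules in picrotoxin 6, against 0 to 2. Pdcd1lg2 was at 0 molecules in picrotoxin 6 and also in DMSO 1, which had 1 molecule of T and NK cell markers. Neutrophil markers stood at 7 molecules in picrotoxin 2, against 1 to 3, and B cell markers at 1 molecule in picrotoxin 3, against 2 in each of the others. Itgam was lowest in picrotoxin 1 at 152.1 normalised molecules, against 176.7 to 190.7. What part these values have in the results was not tested.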

How the results depend on the processing

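The sign of the log2 fold change turned in 12 of 247 refits of the 10 genes, and no fit across all genes gave them an adjusted p under 0.05 (lowest 0.386). The number of genes with an unadjusted p under 0.05, 1 with all libraries, was 0 in limma-voom and 0 with a mean above 10, where Pdcd1lg2 was not tested, 4 in libraries 3 to 6 alone, and between 0 (without picrotoxin 4) and 2 (without DMSO 2, adding Cd274, and without picrotoxin 1, adding Sirpa) when a library was left out. By the rule of the study it was 1, and 0 with a mean above 10, in libraries 3 to 6 alone and with the replicate block. Leaving out a library gave 0 to 1, with 0 without DMSO 1, 3 or 6 or picrotoxin 1, 3, 4 or 5. Cd274 turned to -0.047 with the matrix score and to -0.0011 without both libraries highest in matrix markers, the latter added after the data were seen. Icosl turned to 0.0075 in libraries 3 to 6. Havcr2 turned to 0.14 in libraries 3 to 6 and 0.0053 without both matrix-high libraries, and ran from -0.23 to 0.071 when a library was left out (above 0 without DMSO 1 or picrotoxin 4). Lgals9 turned to 0.0043 in limma-voom and ran from -0.10 to 0.11 when a library was left out (above 0 without DMSO 1, 2 or 4 or picrotoxin 4). The cause was not tested. No pair of genes correlated at an adjusted p under 0.05 on any of the 3 scales. Over all tested genes the deviations of same-numbered libraries from their group means were barely correlated (-0.02 to 0.05, 0 of 6 over 0.1). The numbers were not used as pairs. Counting error in genes of low count pulls such correlations toward 0, so this check cannot show that same-numbered libraries share nothing. With a replicate block in edgeR, Pdcd1lg2 remained the 1 gene under 0.05 (log2 fold change 1.40, adjusted p = 0.496). In the exact permutation test, also added later, no gene passed (Pdcd1lg2 exact p = 0.134). Counts of 0 to 11 molecules for Pdcd1lg2, Cd80 and Pvr limit what could be detected.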
